A study of Mus musculus with 4 samples.

Results

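Stroma T1 was 1 of 5 subtypes of stromal fibroblasts that the study separated by clustering single cells of the mouse mammary gland, and it was described by high Tnfaip6. All 298 genes that the deposited comparison of high-fat diet (HFD) with regular diet (RD) listed for T1 cells were taken as members, whatever their size or p-value, out of 3188 different genes and 5266 entries listed over 11 such comparisons in stromal and immune cells. All 4 animals were female C57BL/6 Brca1-/-;p53+/- mice, so the HFD group and the RD controls carried the same mutant alleles and there was no wild-type group. From 2 months of age, 2 mice received the HFD, with 60% of kcal from fat, and 2 received the RD, labelled a lean-fat diet, with 10% of kcal from fat, for 10 weeks, which was before tumors were seen. Epithelial cells were depleted with an antibody to EpCAM, viable cells negative for the dye 7-AAD were sorted, and 3' single-cell RNA libraries were prepared on the 10X Genomics platform.

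Fibroblasts of the mammary stroma build the extracellular matrix (ECM) that surrounds ducts and fat. They secrete procollagens, which are trimmed, assembled into fibrils and crosslinked outside the cell, together with elastic fibers, basement membrane proteins and the proteases and inhibitors that remodel them. Fibroblasts also respond to interferon and to NF-κB signaling, through which they express guanosine triphosphatases (GTPases) of cell-autonomous defense, antigen presentation genes and chemokines that attract monocytes and neutrophils.

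For each gene the authors deposited an average log fold change of HFD over RD, taken here as a natural log because the Seurat version named in the submitters' processing notes writes it so by default, a p-value across cells and an adjusted p-value. Cells were pooled over the 2 mice on each diet and no value per mouse was given, so these p-values do not cover variation between mice, and every adjusted p given here is the authors' own across cells. A gene was counted as higher or lower in HFD when it changed by at least 1.5-fold with a deposited adjusted p below 0.05, the cut-off of the study for stroma. The fold is of means with 1 added to them, so it understates the change of low genes. Only genes whose average log fold change was at least 0.25 in size, about 1.28-fold, were listed, and an unlisted gene is not a gene shown to be the same in both diets. The deposited table does not state the base of the logarithm, the values cannot settle it, the study writes folds as log2 in another of its analyses, and each fold given here rests on the natural log.

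Of the 298 genes, 159 were listed higher in HFD, or 53.4%, and 139 lower. The cut-off was passed by 50 genes in the higher direction, 16.8% of those listed and 0.367% of the 13611 genes that the deposited adjustment counts, and by 22 genes in the lower direction, 7.38% of those listed and 0.162% of the 13611. Read as log2, the values would leave 9 genes past the cut-off in each direction, Col3a1, Eln, Igfbp6, Gm8797, Sparc, Srxn1, Col6a2, Col1a2 and Col6a3 higher and Iigp1, Ccl2, Ifi47, Ier3, Igkc, Irgm1, Thbs2, Lif and Isg15 lower, so that the other genes described as having risen or fallen depend on the base. An adjusted p below 0.05 was reached by 139 of the higher genes and 58 of the lower genes. Among genes past 1.5-fold, the adjusted p was missed by 2 of 52 higher genes and by 11 of 33 lower genes. The median average log fold change was 0.35 over the genes listed higher and -0.31 over those listed lower, and 0.26 over all of them. Just inside the cut-off stood Dusp1, Itih5 and Gstm1 at 0.41, with Srsf3, Ebna1bp2 and Denr at -0.42, and just outside it stood Itgbl1, Ggt5 and Mmp2 at 0.40, with Srsf7 at -0.40 and Erh and Nhp2l1 at -0.39.

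**Figure D1:**
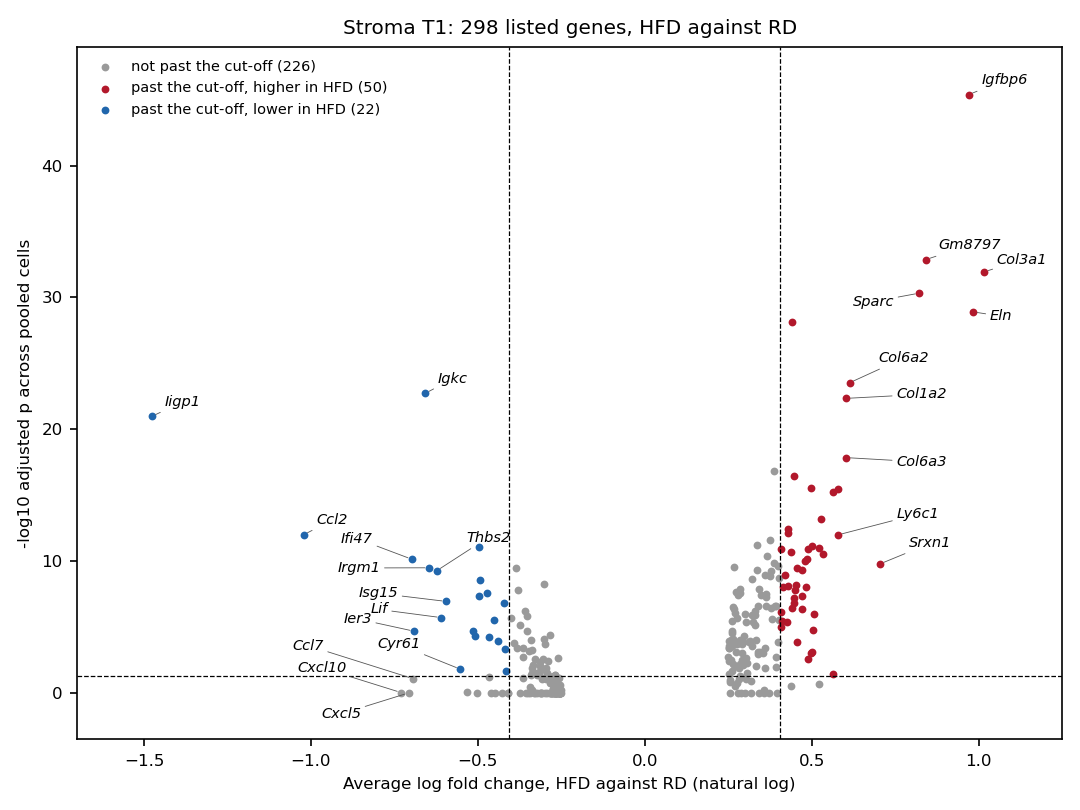
Average log fold change of HFD against RD (natural log, x axis) and the negative log10 of the deposited adjusted p across pooled cells (y axis) for the 298 genes listed in stroma T1, with dashed lines at 1.5-fold and at an adjusted p of 0.05. The 50 red points pass both lines higher in HFD and the 22 blue points lower in HFD, with Iigp1 at -1.48 and Col3a1 at 1.02 as the farthest points, while Cxcl10, Cxcl5 and Ccl7 lie under the horizontal line.

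The label could not be checked, since the comparison held no expression levels and a marker equal in both diets is unlisted at any level. The markers below are given only for their difference between diets. Tnfaip6, the gene by which the study described T1, was not among the 298 genes. Of 11 fibroblast markers, 4 were listed (Col3a1, Col1a2, Col1a1 and Mfap5), all higher in HFD. Past the cut-off were 3 of the 4, beside 24.2% of all listed genes. No marker of T cells, NK cells, endothelial cells, pericytes and smooth muscle, epithelium, adipocytes, Schwann cells or red cells was listed. Of 6 B cell markers 1 was listed, Igkc, the constant region of the immunoglobulin kappa chain, which fell by 0.66 (1.93-fold lower, adjusted p of 1.86e-23). Of 11 myeloid markers 1 was listed, Lyz2, the lysozyme of macrophages and neutrophils, which rose by 0.45 (1.57-fold, adjusted p of 1.64e-08). Lyz2 shares 37.0% of its 31-base stretches near the transcript end with Lyz1, so reads can be ambiguous between them. Both markers were also listed in other cell types of the same 4 mice: Igkc at -0.31 in T2, -0.42 in T3, 0.78 in monocytes, 2.08 in memory T cells and -1.10 in B cells (the last 2 with an adjusted p of 1), and Lyz2 at 0.62 in T2, 0.53 in T3 and 0.65 in monocytes. Retnla, a secreted product of alternatively activated macrophages that was chosen after its values were seen, was at 0.34 in T1 (adjusted p of 5.86e-12), 1.12 in monocytes and 2.32 in macrophages. The part of RNA or cells of other types in the T1 values was not tested.

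The genes of the ECM made up the largest of the listed groups that were higher in HFD. Of 167 genes on 7 lists of matrix components and their processing, 44 were listed in T1, 38 higher and 6 lower, with a median of 0.42. Of the 44, 22 rose and 3 fell past the cut-off, or 56.8%, beside 24.2% of all listed genes. The lists cover secreted proteins with long-known roles in the matrix, and they were written with earlier results of these data known.

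The fibrillar collagens, which form the tensile fibers of connective tissue, and the fibril-associated collagens had 7 members listed higher and 0 lower. Past the cut-off were 4 of them, or 57.1%, beside 24.2% of all listed genes. Col3a1, the collagen of fine reticular fibers (ENSMUSG00000026043, GRCm38, chr1:45311538-45349706, plus strand), rose by 1.02, or 2.77-fold, with an adjusted p of 1.14e-32, and had the largest average log fold change among the genes listed higher. The chains of type I collagen, the main collagen of the stroma, also rose, Col1a2 by 0.60 (1.83-fold, adjusted p of 4.51e-23) and Col1a1 by 0.47 (1.60-fold, adjusted p of 5.00e-10). Col5a3, a chain of the type V collagen that helps to start fibrils, rose by 0.56, while Col5a1 (0.38), Col5a2 (0.36) and the fibril-associated Col12a1 (0.28) were listed higher without reaching 1.5-fold. Type VI collagen, which forms beaded filaments around cells, had its 3 classical chains past the cut-off, Col6a2 at 0.61, Col6a3 at 0.60 and Col6a1 at 0.45. Thus all 3 type VI chains that were listed passed it, beside 24.2% of all listed genes, and the other 3 on the list were not listed.

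Of 18 genes of elastic fibers and microfibrils, 7 were listed higher and 1 lower. Eln, which encodes elastin (ENSMUSG00000029675, chr5:134702593-134747323, minus strand), rose by 0.98, or 2.67-fold, with an adjusted p of 1.24e-29. The microfibril genes Mfap2 (0.58) and Fbn1, fibrillin 1 (0.43), rose with it. Mfap4 was at 0.44 but with an adjusted p of 0.315. Efemp1, the fibulin 3 gene, went the other way and fell by 0.47 (adjusted p of 2.78e-08).

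Of 24 basement membrane genes, 8 were listed, all higher, and 5 of the 8 passed the cut-off, or 62.5%, beside 24.2% of all listed genes. Sparc, a secreted glycoprotein that binds collagen (ENSMUSG00000018593, chr11:55394500-55423183, minus strand), rose by 0.82, or 2.28-fold, with an adjusted p of 4.72e-31. Hspg2, which encodes perlecan, rose by 0.50, the network collagen chains Col4a2 and Col4a1 by 0.48 and 0.45, and Smoc2, a relative of Sparc, by 0.47.

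Genes that process matrix proteins were higher too. All 5 listed genes of collagen processing were higher. The cut-off was passed by 3 of them, or 60.0%, beside 24.2% of all listed genes. These were Adamts2, which removes the amino-terminal propeptide of procollagen (0.50), Pcolce, the enhancer of the carboxyl-terminal cleavage (0.43), and Loxl1, which crosslinks elastin (0.42). Lox, the crosslinking oxidase of collagen and elastin, was at 0.36. The small leucine-rich proteoglycans Ogn (0.53) and Bgn (0.50) rose. The matricellular genes were divided, with Wisp2 at 0.49 and Tnxb, tenascin X, at 0.43 past the cut-off in the higher direction, while Thbs2, thrombospondin 2, fell by 0.62 (1.86-fold lower, adjusted p of 5.33e-10) and Cyr61 by 0.55 (adjusted p of 0.0157). Of 15 listed matrix proteases and protease inhibitors, 14 were higher, beside 53.4% of all listed genes. Timp1, an inhibitor of metalloproteinases, rose by 0.56 with an adjusted p of 0.0343, close to the limit, and the cathepsins Ctsh and Ctsk rose by 0.48 and 0.45.

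**Figure D2:**
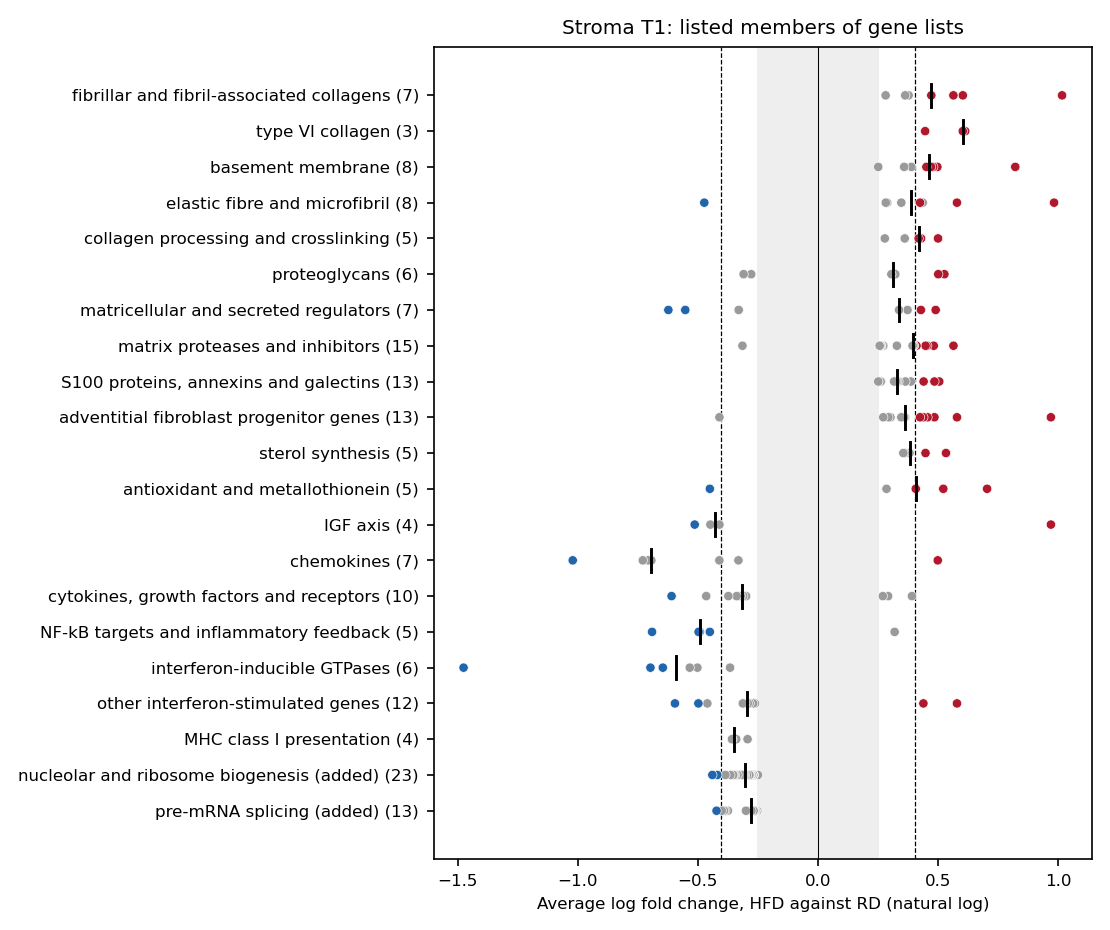
Average log fold change of HFD against RD (natural log, x axis) of the listed members of 21 gene lists in stroma T1, 1 point a gene, with the number listed in brackets, a black bar at the median of each list, red and blue points past the cut-off, dashed lines at 1.5-fold and the unlisted range in grey. All 7 fibrillar and fibril-associated and all 3 type VI collagens lie right of 0, while all 6 interferon-inducible GTPases and all 4 MHC class I genes lie left of it.

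Beside the matrix, Igfbp6, which binds insulin-like growth factors and prefers IGF2 (ENSMUSG00000023046, chr15:102144362-102149511, plus strand), rose by 0.97, or 2.64-fold, and had the smallest adjusted p of the comparison, 4.09e-46. Igf1, the growth factor itself, fell by 0.51 (1.67-fold lower, adjusted p of 2.02e-05). Igfbp3 at -0.45 and Igfbp5 at -0.41 each had an adjusted p of 1. Igfbp6 belongs also to genes known from adventitial, progenitor-like fibroblasts around vessels, of which 12 were listed higher and 1 lower. Of these 13, 6 passed the cut-off, or 46.2%, beside 24.2% of all listed genes. The 6 included Ly6c1 (0.58) and Ly6a (0.44), surface proteins used to mark such cells, and Tppp3 (0.46). Cd34 at 0.29, and Pi16 at 0.36 with an adjusted p of 0.645, did not pass it. Ly6c1 shares 44.3% of its 31-base stretches near the transcript end with other genes, mostly Ly6c2.

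All 13 listed members of a mixed list of S100 proteins, annexins, galectins and Crip proteins were higher, 12 of them with an adjusted p below 0.05. A fold of 1.5 was reached by 3 of 13, or 23.1%, about the share of all listed genes (24.2%). These were Lgals3, galectin 3, at 0.51, Anxa3 at 0.49 and S100a6 at 0.44, the last with an adjusted p of 6.77e-29. All 5 listed genes of sterol synthesis were higher with an adjusted p below 0.05. Idi1, which interconverts the isoprenoid building blocks, rose by 0.53 (1.70-fold), and Hmgcs1, which makes hydroxymethylglutaryl-CoA, by 0.45 (1.57-fold), with Msmo1 at 0.38, Insig1 at 0.36 and Cyp51 at 0.36. Idi1 shares 42.3% of its stretches with Gm13502. Of the antioxidant genes, Srxn1, which repairs oxidized peroxiredoxins, rose by 0.70 (2.02-fold, adjusted p of 1.63e-10), the extracellular glutathione peroxidase Gpx3 by 0.52 and the glutathione transferase Gstm1 by 0.41. Sod2, the mitochondrial superoxide dismutase, fell by 0.45. Gm8797 was at 0.84 (2.32-fold), but 91.4% of its stretches are shared with Gm1821, so its value is uncertain.

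Genes lower in HFD included several of the response to interferon. All 6 listed interferon-inducible GTPases, which act on the membranes around intracellular microbes, were lower, with a median of -0.59. Of these 6, 3 passed the cut-off, beside 24.2% of all listed genes. Iigp1 fell by 1.48, or 4.38-fold, with an adjusted p of 1.03e-21, and was the largest change of either direction. Ifi47 fell by 0.70 (2.01-fold lower, adjusted p of 7.21e-11) and Irgm1 by 0.65 (1.91-fold lower, adjusted p of 3.20e-10). Gbp2b at -0.53 and Gbp2 at -0.50 missed the adjusted p (0.913 and 1), and Igtp at -0.37 missed the fold.

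Of 12 other listed interferon-stimulated genes, 10 were lower and 2 higher, the latter being Ly6c1 and Ly6a, which also stand on the adventitial list. Isg15, a protein modifier related to ubiquitin, fell by 0.60 (1.81-fold lower, adjusted p of 1.13e-07) and Rtp4, a chaperone of membrane receptors, by 0.50. Ifit3 was at -0.46 with an adjusted p of 1, and Irf7, a factor that drives interferon genes, at -0.31 with an adjusted p of 0.00865. The 4 listed genes of MHC class I presentation were lower without reaching 1.5-fold: B2m, the light chain, at -0.36 (adjusted p of 5.88e-07), the peptide transporter gene Tap1 at -0.34 (adjusted p of 9.57e-05), and the heavy chain genes H2-Q7 and H2-D1 at -0.36 and -0.29 with an adjusted p of 1. No MHC class II gene of 10 was listed. Taken as 1 group, the interferon and MHC class I lists had 2 members that rose and 5 that fell among 22 listed, so that 31.8% passed the cut-off, beside 24.2% of all listed genes, and 0 of the 4 MHC class I genes did.

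The promoters of these genes were searched for the core of the interferon-stimulated response element, GAAANNGAAA, on both strands, in RefSeq windows from 250 bases before to 50 bases after each transcript start (GRCm38.p6). Of the 298 genes, 225 had such a window. The motif was found in 10 of the 19 listed interferon and MHC class I genes that had a window, or 52.6%, in 8.44% of all T1 genes with a window and in 3.99% of all 27025 genes. By list it was in 4 of 5 GTPases, 5 of 10 other interferon-stimulated genes and 1 of 4 MHC class I genes. Iigp1, Rtp4 and Ly6a had no window. A match describes the letters in a window and was not tested as a binding site. The matches nearest to the start are shown for Isg15, which fell, and for Ifit3, Gbp2b and Igtp, which did not pass the cut-off, each 5′ to 3′ on the strand of its gene with 20 bases on either side and the motif in capitals (in Ifit3 and Gbp2b it lies on the other strand). None of these stretches overlaps a gene in GENCODE vM21, and they lie at chr4:156200855-156200904 (minus, Isg15), chr19:34583387-34583436 (plus, Ifit3), chr3:142594690-142594739 (plus, Gbp2b) and chr11:58199502-58199551 (plus, Igtp).
Isg15: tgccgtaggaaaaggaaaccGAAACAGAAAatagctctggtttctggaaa
Ifit3: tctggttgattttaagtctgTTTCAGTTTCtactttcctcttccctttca
Gbp2b: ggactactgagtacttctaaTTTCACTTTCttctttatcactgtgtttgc
Igtp: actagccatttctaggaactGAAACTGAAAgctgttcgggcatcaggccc

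Of 7 listed chemokines, 6 had values below 0 and the median was -0.69, but 1 fell and 1 rose past the cut-off, 28.6% beside 24.2% of all listed genes. Ccl2, which attracts monocytes through CCR2 (ENSMUSG00000035385, chr11:82035571-82037453, plus strand), fell by 1.02 (2.78-fold lower, adjusted p of 9.84e-13) and was the only one of the 6 past the cut-off. Cxcl10, a ligand of the chemokine receptor CXCR3, was at -0.73 with an adjusted p of 0.94, Cxcl5, which attracts neutrophils, at -0.71 with an adjusted p of 1, and Ccl7, which also recruits monocytes, at -0.69 with an adjusted p of 0.083. These 3 differences were 2-fold or more in size and did not pass the test across cells. Cxcl2 was at -0.41 with an unadjusted p of 0.79. Cxcl14 rose by 0.50 (1.65-fold, adjusted p of 9.69e-04).

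Of 5 listed genes that NF-κB induces or that limit inflammatory signals, 4 fell past the cut-off. This was 80.0%, beside 24.2% of all listed genes. Those that fell were Ier3, an early response gene that protects from cell death, by 0.69 (2.00-fold lower, adjusted p of 2.07e-05), Errfi1, an inhibitor of the EGF receptor, by 0.50, Nfkbia, the inhibitor of NF-κB, by 0.49, and Sod2 by 0.45. The remaining gene, Ptx3, was listed higher at 0.32 and did not pass the cut-off. Among 10 listed cytokines, growth factors and receptors, 7 were lower and 3 higher. The cut-off was passed by 1 of the 10, or 10.0%, a smaller share than the 24.2% of all listed genes. An adjusted p below 0.05 was reached by all 3 higher genes and by 2 of the 7 lower genes. Lif, a cytokine of the IL-6 family, fell by 0.61 (1.84-fold lower, adjusted p of 1.93e-06), and Il6 itself was at -0.30 with an adjusted p of 1. The immediate early genes were divided: Dusp1, a phosphatase that switches off MAP kinases, rose by 0.41, and Pim1, a survival kinase, fell by 0.47. Of the 6 listed, 3 were higher and 3 lower, so their median of 0.04 is not the value of any of them. The letters GGGNNTTTCC, a site of NF-κB, were found on either strand in 2 of the 8 listed chemokine and NF-κB genes with a window, Cxcl2 and Nfkbia. They were in 3.56% of all T1 genes with a window and in 1.89% of all genes. Ccl2, Ccl5, Ccl7 and Cxcl5 had no window. Nfkbia is shown because it fell, at chr12:55492648-55492696 on the minus strand (GRCm38.p6), directly before the gene, with the match on the other strand in capitals. Hmgcs1, which rose, is shown with its match to a sterol regulatory element, TCACNCCAC, at chr13:119690194-119690242 on the plus strand, outside any GENCODE gene. It was 1 of 5 listed sterol genes with this match, beside 1.44% of all genes, and this motif was chosen after the values were seen.
Nfkbia: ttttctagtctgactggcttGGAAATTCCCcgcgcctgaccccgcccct
Hmgcs1: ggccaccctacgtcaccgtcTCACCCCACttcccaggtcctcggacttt

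Genes of the nucleolus and of RNA processing formed a further group, put on lists after their values were seen. All 23 listed genes of nucleolar and ribosome biogenesis were lower, with a median of -0.30, 11 of the 23 with an adjusted p below 0.05, beside 197 of all 298 genes. The cut-off was passed by 2 of them, or 8.70%, a smaller share than the 24.2% of all listed genes. Nhp2, a component of the particles that pseudouridylate ribosomal RNA, fell by 0.44, and Ebna1bp2, which acts in assembly of the large subunit, by 0.42, and no other passed 1.5-fold. All 13 listed splicing genes were lower, with a median of -0.28, and Srsf3, a splicing factor rich in serine and arginine, fell by 0.42. Srsf7 at -0.40 and Srsf6 at -0.38 were under 1.5-fold with adjusted p-values of 2.01e-06 and 6.85e-06. The E-box CACGTG, also chosen after the values were seen and searched on both strands, was in 1 of the 19 listed nucleolar genes with a window, or 5.26%, and in 8.09% of all genes. No cytosolic ribosomal protein and no mitochondrially encoded gene was listed.

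Some groups that might be looked for in fibroblasts of a fatter gland had few listed members. Of all 13611 genes that the deposited adjustment counts, 298 were listed, so a low number is not particular to these groups. No shortage is read from it. Of 51 preadipocyte and lipid genes 2 were listed, Gpx3 and Angptl4 (0.39), an inhibitor of lipoprotein lipase. Of 41 myofibroblast and cytoskeleton genes 2 were listed, Myl6 (0.32) and Zyx (0.31), and of 27 complement genes 0 were listed. Since neither detection nor level was given for unlisted genes, a gene that was not measurable in T1 cannot be told apart from one that differed by less than the listing minimum.

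The same genes are given for the other cell types as their own values, since all comparisons share the same 4 mice and no test of a difference between cell types can be made from them. Col3a1 was at 0.77 in T2, 0.67 in T3 and 1.36 in T4, each with an adjusted p below 0.05, and at 1.83 in T5 with an adjusted p of 0.0735. Eln was at 1.10 in T2 and 0.84 in T3, both with an adjusted p below 0.05, and at 0.39 in T4 and 0.42 in T5 with an adjusted p of 1. Igfbp6 was higher in all 5 subtypes with an adjusted p below 0.05, with values of 0.53 (T2), 0.75 (T3), 0.88 (T4) and 1.84 (T5). Col6a3 was at 0.71 in T3 and was not listed in T2. The adjusted p depends on how many cells were compared, which the tables do not give: it was below 0.05 for 66.1% of the entries of T1, 38.0% of T2, 39.8% of T3, 5.95% of T4 and 0.268% of T5.

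**Figure D3:**
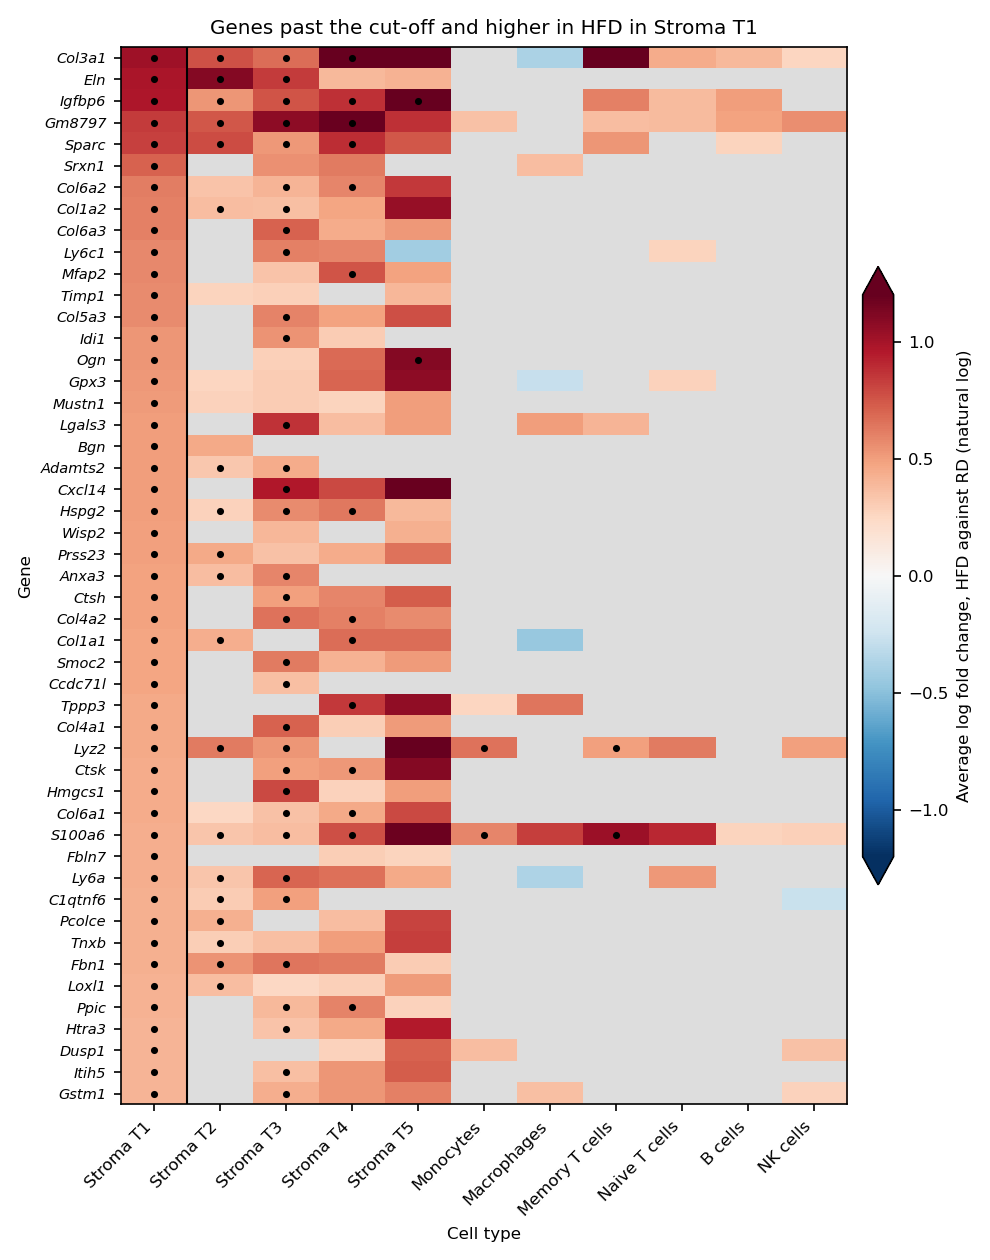
Average log fold change of HFD against RD (natural log, color) of 49 of the 50 genes that rose in stroma T1 (vertical axis) in each of the 11 cell types (horizontal axis), with a black dot where the deposited adjusted p was below 0.05 and grey where the gene was not listed. Igfbp6 and Gm8797 carry a dot in T1 to T4 and Igfbp6 also in T5, while most cells of the 6 immune columns are grey.

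Of the genes that fell, Iigp1 was lower in every stromal subtype, at -0.89 in T2 and -1.19 in T3 with an adjusted p below 0.05, and at -1.14 in T4 and -0.73 in T5 with adjusted p-values of 0.819 and 1. Ccl2 had values of -0.58 (T2), -0.29 (T3), -1.19 (T4) and -0.45 (T5), none of them with an adjusted p below 0.05, and at 0.48 in monocytes with an adjusted p of 1. Lif was listed in 1 other cell type, T2, at -0.48 (adjusted p of 0.00337). Igf1 was listed in 1 other as well, T3, at -0.94. Thbs2 was at -0.59 in T2 and at -0.72 in T4 (adjusted p of 0.018). Isg15 was at -0.56 in T3, -0.33 in T4, -0.46 in T5, -0.66 in monocytes and -0.44 in NK cells, each with an adjusted p of 1.

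**Figure D4:**
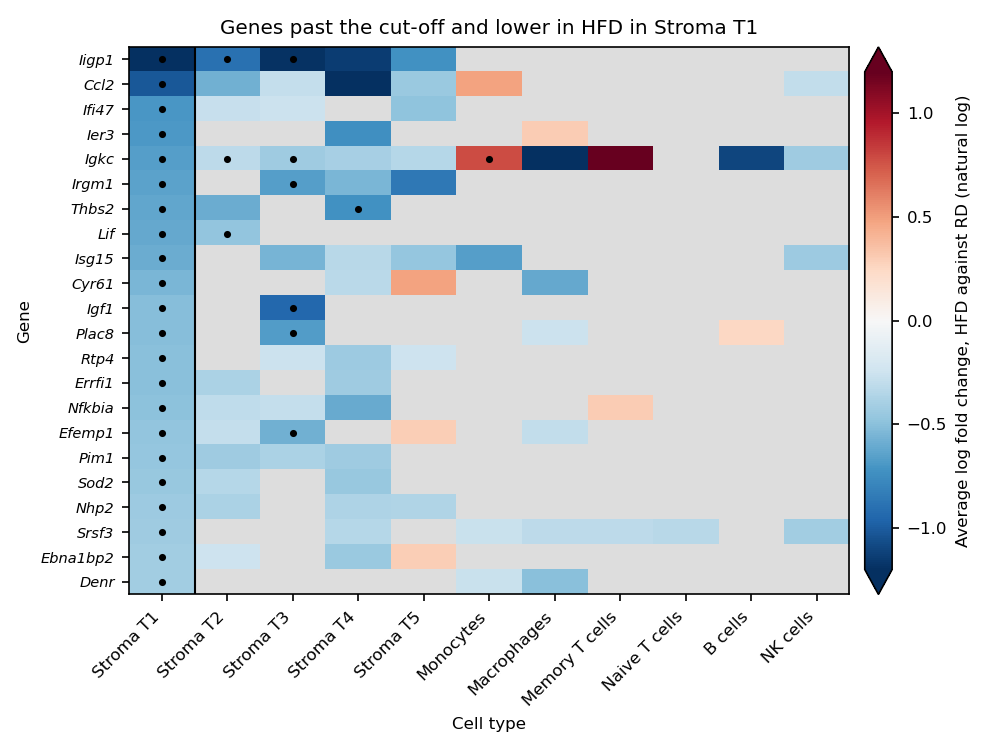
Average log fold change of HFD against RD (natural log, color) of the 22 genes that fell in stroma T1 (vertical axis) in each of the 11 cell types (horizontal axis), with a black dot where the deposited adjusted p was below 0.05 and grey where the gene was not listed. Iigp1 is blue in all 5 stromal columns, and Igkc is red in monocytes and memory T cells and blue in T1, T2, T3 and B cells.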

How the data were processed

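The sources used here name Cell Ranger 3.0.2, mm10 and Seurat 3.1.1 (R 3.6.1) for the processing by the authors; the name of the test is not given in them. For each of 11 cell types the authors deposited a comparison of HFD with RD cells, and their average log fold change (natural log), p-value and adjusted p-value columns are the only measurements used, since the deposited tables hold no counts. The adjusted p-value equaled the p-value times 13611, capped at 1, in every table. The study states cells per mouse and reads per cell, but the tables hold no number of cells per cell type or counts behind a value, and no doublet removal was named or could be made. Folds, counts past the cut-off and list medians were computed with Python 3.11.15 and pandas 2.3.3. Only the cut-off rule and the Benjamini-Hochberg adjustment were run on simulated data. The changed genes there were set past both limits, so their recovery was fixed in advance. Positions were matched by symbol to GENCODE vM21 for 291 genes. Shared 31-base stretches were counted over the last 400 bases of each transcript. The members, 26 gene lists and tests were chosen with earlier results of these data known; 3 further lists (nucleolar, splicing, caveola) were added after the T1 values were seen. Of 9 caveola genes, 3 were listed, all higher and 0 past the cut-off. Named genes were those past the cut-off, up to 4 members of each list, the largest that missed the adjusted p, those nearest 1.5-fold and the markers; any other gene named was picked with its value in view. The result of 1 gene is not reported here and is not drawn by name.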

Additional observations from a re-analysis of the deposited data

How the results depend on the processing

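Against 50 genes higher and 22 lower, reading the deposited values as log2 left 9 higher and 9 lower, because a fold of 1.5 is then a larger value. A 2-fold limit left 6 higher and 3 lower, and no fold limit beyond the listing gave 139 higher and 58 lower. An adjusted p of 0.001 gave 48 and 20, Benjamini-Hochberg adjustment over the 13611 genes 52 and 29, fold alone 52 and 33, and leaving out Gm-numbered genes 49 and 22. The smaller sets were subsets of the 72 genes. With Benjamini-Hochberg adjustment, 5 interferon-inducible GTPases were lower past the cut-off instead of 3, and 3 chemokines instead of 1. On the gene's own strand alone the shares of all genes with a motif were 2.06% for the interferon element, 0.888% for the NF-κB site and 0.625% for the sterol element. No paired analysis was possible because the comparisons hold no value per mouse, and for the same reason no mouse could be left out. Without counts or the number of cells compared, neither counting error nor the spread between mice can be given.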

Other observations

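Of the 298 genes, 10 were listed with an unadjusted p above 0.05, 3 higher and 7 lower, so that size and test did not go together for them. Sfrp4, a secreted antagonist of Wnt, was at 0.37 with an unadjusted p of 0.861, and Cxcl2 at -0.41 with an unadjusted p of 0.79. F3, tissue factor, which starts coagulation, and Adm, the vasodilator adrenomedullin, had unadjusted p-values of 0.93 and 0.73. The 2 higher genes past 1.5-fold that missed the adjusted p were Mgp, the matrix Gla protein that restrains calcification, at 0.52 (0.197), and Mfap4. Near-identical copies can share reads for 11 of the 291 genes with transcripts, in each of which over 50% of stretches occur in another gene. Most members past the cut-off, S100a6 among them with 0 shared stretches, are not in that number.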
